A study of Mus musculus with 12 samples.

Results

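The transcripts of 33 genes of glucose breakdown were followed in OT-II follicular helper T (Tfh) cells, from the transporters that carry glucose into the cell to the enzymes that end in lactate, in mitochondrial acetyl-CoA or in ribose. The members were taken by symbol from the count table of 24561 gene rows, and all 33 symbols were found there. They comprised 2 glucose transporters, 10 genes of upper glycolysis, 5 of lower glycolysis, 4 lactate dehydrogenase and lactate transporter genes, 4 genes of pyruvate entry into mitochondria, the transcription factor gene Hif1a and 7 genes of the pentose phosphate pathway. Of these, 32 passed the expression filter. The row named Aldoa held 7 reads in all 12 libraries and was not tested.

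The cells were ovalbumin-specific CD4 T cells that carry the OT-II receptor transgene on the C57BL/6 background, transferred into SAP-deficient mice, whose own T cells give little help to B cells. They were sorted from draining lymph nodes as CXCR5hi PD-1hi cells 3 days after the recipients received NP-OVA with LPS in alum under the skin. In 3 recipients the transferred cells were labelled Cd4-cre × Bcl6 fl/+ (BCL6-insufficient) and in 3 recipients Cd4-cre (wild-type). All cells therefore carried the Cd4-cre transgene, which drives Cre in T cells from the stage at which they express CD4, and by their labels the groups differ in 1 loxP-flanked allele of Bcl6, the gene of the Tfh lineage repressor, a difference that the level of Bcl6 given below goes against. Each recipient gave 2 technical repeats of about 200 cells, which were summed, so that n = 3 mice of each label. How many donors supplied the transferred cells is not stated, so donor and genotype cannot be told apart if the recipients of a label shared a donor, and the p-values then cover only the spread between recipients.

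Total counts ranged from 3343375 to 8315722 per library in the mice labelled BCL6-insufficient and from 5240715 to 7266106 in those labelled wild-type. Bcl6 itself was higher under the label BCL6-insufficient, at 150, 146 and 150.0 normalized CPM (CPM, reads scaled to library size after TMM normalization) against 54.8, 75.6 and 56.9, a log2 fold change of 1.25 (SE 0.12, adjusted p = 6.3e-07 by the quasi-likelihood test of edgeR, Benjamini-Hochberg adjusted, as for all adjusted p-values below unless another tool is named). This goes against the label, and Bcl6 was called higher in 21 of 21 alternative settings. Reads were counted over the gene as a whole, so that the counts do not show whether an allele was deleted. Whether the labels of the groups were exchanged cannot be told from these data, and if they were, every lower and higher below would turn round. Groups are therefore named by their labels, and every direction below rests on those labels. The Tfh markers Cxcr5 and Pdcd1 were abundant in every mouse, at 225 to 330 and at 158 to 234 normalized CPM, and both were lower under the label BCL6-insufficient (log2 fold changes of -0.40 and -0.42), whereas the costimulatory receptor gene Icos was higher (0.64). Markers of other cells were also examined. Of 7 B cell markers tested none was called, of 4 myeloid markers tested Lyz2 was higher, and of 3 CD8 and NK cell markers tested Nkg7 was higher, both under the label BCL6-insufficient. The call of Nkg7 was not firm (adjusted p = 0.0494): the mice overlapped, and it was kept in 2 of the 6 fits that left out a mouse. Some of these markers were present in every library, with Ighm at 499 to 765 normalized CPM in the 6 mice, Cd8b1 at 82 to 303 reads per library and Csf1r at 12 to 84, while Cd8a had at most 2 reads in a library and Cd14 and Eomes were at 0.

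Glycolysis splits glucose into pyruvate in the cytosol and yields a little ATP, and lactate dehydrogenase then recycles the electron carrier NAD. The pentose phosphate pathway branches off after the first phosphorylation of glucose and supplies NADPH and ribose phosphate for nucleotides. T cells raise both routes when they are activated and divide, and HIF-1 and MYC are known activators of many of the genes. In T cells BCL6 has been described as a repressor of glycolytic genes.

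Glycolysis and pentose phosphate genes were lower as a group in the mice labelled BCL6-insufficient. Of the 32 members tested, 19 were lower, 2 were higher (Hk2 and Rpia) and 11 did not pass the test. Over all 12719 genes tested, 8.82% were called lower and 9.17% higher. The median log2 fold change was -0.54 over the 32 members and 0.01 over all genes, and 29 members had a value below 0. In 23 members all 3 mice labelled BCL6-insufficient lay below all 3 labelled wild-type, against 17.0% of all genes, and in 2 members they lay above, against 17.4%. At the level of single libraries, 6 against 6, there was no overlap in 11 members that were lower, against 4.53% of all genes, and in 1 member that was higher, Rpia, against 4.13%. The members were chosen with earlier results of these data known, so these counts describe the list and are not an independent test of it. From bulk RNA, fewer cells that use a pathway and less RNA of it per cell cannot be told apart.

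The number of lower members depended on the measure. It was 12 when the deposited TPM values were tested with limma in place of the counts, where 7.2% of all genes were lower with a pseudocount of 1. The calls lost there were those of Slc2a1, Tpi1, Ldhb, Slc16a1, Pdk1, Pdha1 and G6pdx, with log2 fold changes of -0.67, -0.82, -0.53, -0.57, -0.78, -0.50 and -0.49 and adjusted p-values of 0.0586 to 0.104 by limma. With technical repeat 1 alone 13 members were lower, against 4.54% of all genes. They were 12 of the 19 and Pfkm, and the calls lost were those of Slc2a1, Pgk1, Ldhb, Slc16a1, Pdk1, Pdha1 and G6pdx. Their log2 fold changes were then -0.57, -0.23, -0.28, -0.40, -0.57, -0.42 and -0.10. With repeat 2 alone 17 were lower, against 6.11% of all genes, and the calls of Pdha1 and Taldo1 were lost (-0.38 and -0.27). The number fell to 14 of 32 without the third mouse labelled wild-type, when 5.25% of all genes were lower. Under the 21 alternative settings, each of the 19 lower members kept a log2 fold change below 0 in every setting, and 10 of them passed the test in every setting. These were Gpi1, Pfkl, Pgam1, Eno1, Pkm, Ldha, Hif1a, Pgd, Tkt and Rpe.

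**Figure D1:**
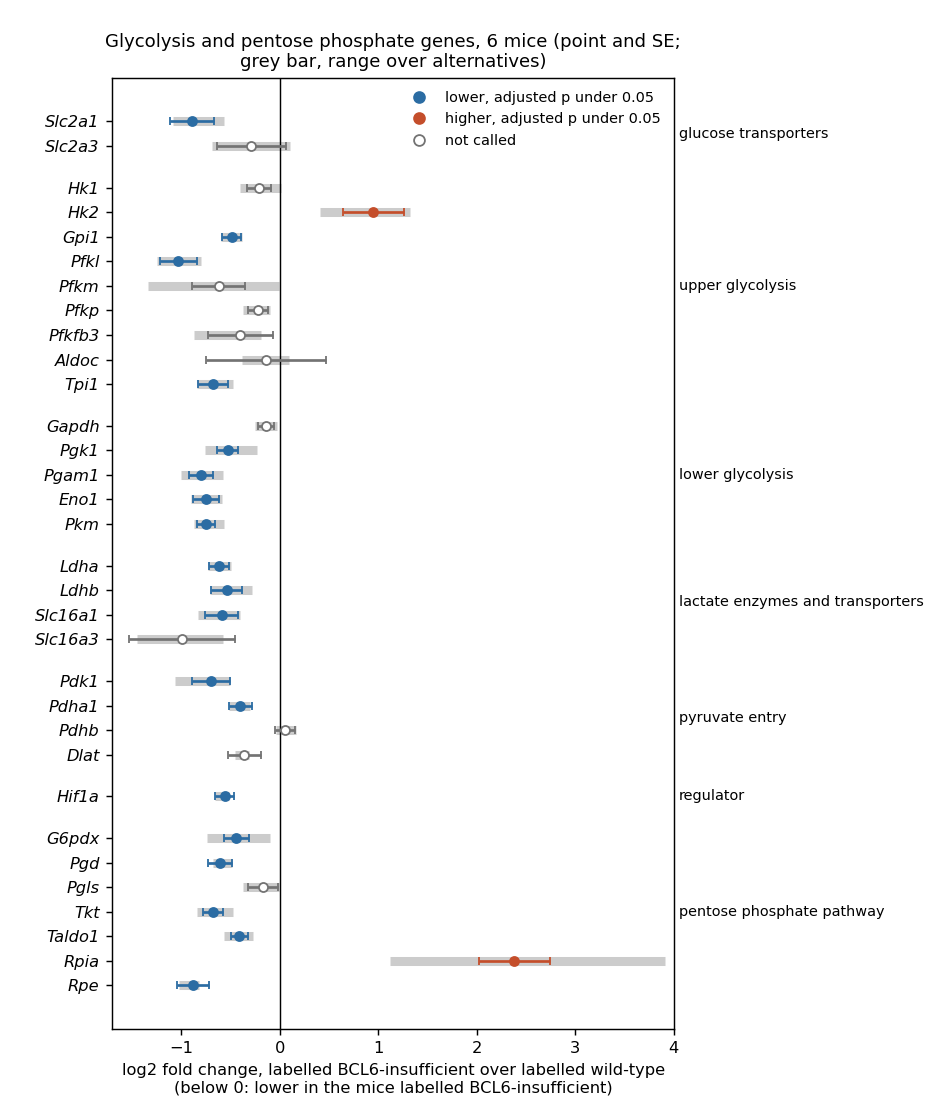
Log2 fold change of the 32 tested members between the 3 mice labelled BCL6-insufficient and the 3 labelled wild-type, grouped by role, with the standard error as a whisker and the range over the alternative settings as a grey bar. Filled blue points are the 19 lower members, filled orange points the 2 higher members Hk2 and Rpia, and open points the 11 that did not pass the test.

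The promoters of 5 called members are printed here because most called members moved in 1 direction while 2 moved in the other. They are those of the 2 higher members and of 3 lower members along the route, picked among called members that hold the letters marked below. The lower members Gpi1, Tpi1 and Rpe held none of these letters and are not printed, so the 3 do not stand for all lower members. Each is the 250 bases before an annotated start, 5′ to 3′ on the gene's strand, from RefSeq on GRCm38.p6. Capitals mark the letters ACGTG and GCGTG, the core of the HIF response element, or their reverse complements.

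Ldha (chr7:46845554-46845803, plus strand): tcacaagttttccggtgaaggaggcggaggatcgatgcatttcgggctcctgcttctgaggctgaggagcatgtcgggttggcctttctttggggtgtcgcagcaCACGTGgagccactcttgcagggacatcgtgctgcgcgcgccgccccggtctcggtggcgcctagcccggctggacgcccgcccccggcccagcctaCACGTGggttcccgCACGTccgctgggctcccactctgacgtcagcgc
Pgk1 (chrX:106186850-106187099, plus strand): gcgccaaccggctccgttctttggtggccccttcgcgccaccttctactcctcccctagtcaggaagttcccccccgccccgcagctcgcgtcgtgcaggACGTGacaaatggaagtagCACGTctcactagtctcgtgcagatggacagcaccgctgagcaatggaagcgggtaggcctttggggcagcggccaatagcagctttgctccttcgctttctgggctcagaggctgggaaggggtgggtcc
Pgam1 (chr19:41911621-41911870, plus strand): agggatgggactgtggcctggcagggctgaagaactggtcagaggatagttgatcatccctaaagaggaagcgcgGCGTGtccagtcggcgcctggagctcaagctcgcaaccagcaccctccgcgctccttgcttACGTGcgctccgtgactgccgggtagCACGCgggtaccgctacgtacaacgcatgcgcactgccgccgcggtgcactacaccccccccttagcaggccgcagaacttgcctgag
Hk2 (chr6:82774455-82774704, minus strand): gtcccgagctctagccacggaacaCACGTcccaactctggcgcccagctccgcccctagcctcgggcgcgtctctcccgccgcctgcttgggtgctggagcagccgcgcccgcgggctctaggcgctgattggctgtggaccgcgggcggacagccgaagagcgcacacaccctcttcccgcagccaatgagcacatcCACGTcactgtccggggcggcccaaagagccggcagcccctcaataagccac
Rpia (chr6:70792176-70792425, minus strand): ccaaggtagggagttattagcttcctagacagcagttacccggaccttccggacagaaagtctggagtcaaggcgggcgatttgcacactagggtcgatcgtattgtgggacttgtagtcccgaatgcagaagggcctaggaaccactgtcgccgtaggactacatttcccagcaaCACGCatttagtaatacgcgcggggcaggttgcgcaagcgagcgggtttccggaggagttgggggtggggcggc

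Ldha showed the largest number of ACGTG cores, 5 in the window of its upstream start, of which 4 lie in 2 copies of the palindrome CACGTG (the E-box of MYC and USF factors), since that palindrome reads ACGTG on both strands. Pgk1 held 2 and Pgam1 held 1 together with 2 GCGTG cores. Hk2, which moved in the other direction, also held 2 ACGTG cores, and Rpia held 1 GCGTG core. The promoter table matched 32 of the 33 members, in 46 windows. A core of either spelling, on either strand, was present in at least 1 window of 16 of the 19 lower members, of both higher members, and of 10 of the 11 matched members that were not called or not tested. It was found in 36 of 46 member windows and in 38.6% of all 32851 windows of the same length. Thus the letters were frequent among the members whether or not they were called. ACGTG alone was in 16 of 46 member windows (16.6% of all windows), GCGTG in 26 (28.2%) and CACGTG in 5 (6.02%). TTCNNNGAA, the palindrome bound by STAT factors, which resembles the BCL6 motif, was in 2 member windows, 1 of Aldoc and 1 of Pfkm, against 7.02% of all windows, and in none of the 25 windows of the lower members. The members' windows were not matched for base composition, and a match of letters is not a binding site.

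Levels differed widely along the pathway. Per kb of the principal transcript, Gapdh was the most abundant member, with a mean of 1547 normalized CPM per kb over the 6 mice, followed by Ldha at 842, Eno1 at 411, Pkm at 404 and Taldo1 at 269. The order of Eno1 and Pkm was exchanged when the summed exon length was used. At the other end stood Aldoc at 0.557, Slc16a3 at 0.564, Hk2 at 1.5 and Pfkfb3 at 1.54. Both higher members were among the 7 least abundant, whereas 4 of the 5 most abundant members were lower and Gapdh was not called.

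**Figure D2:**
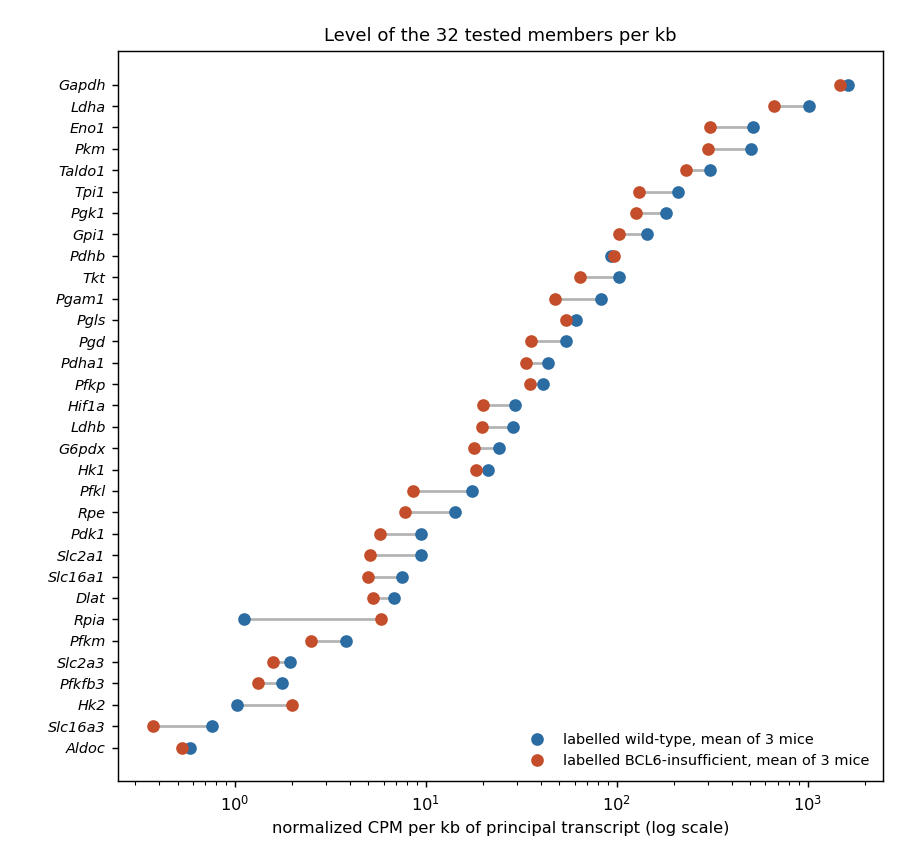
Mean level of the 32 tested members in normalized CPM per kb of principal transcript, on a log axis, for the 3 mice labelled wild-type (blue) and the 3 labelled BCL6-insufficient (orange). Most orange points lie to the left of their blue points. Hk2, Rpia and Pdhb are the 3 members on the opposite side.

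Glucose enters T cells mainly through the facilitative transporters encoded by Slc2a1 (GLUT1) and Slc2a3 (GLUT3). Slc2a1, on chromosome 4 of GRCm38 from 119108711 to 119137983, stood at 11.1, 20.5 and 18.2 normalized CPM in the 3 mice labelled BCL6-insufficient and at 24.7, 27.9 and 39.0 in those labelled wild-type. The mice did not overlap, and the level was 1.85-fold lower (log2 fold change -0.89, SE 0.22, adjusted p = 0.00699). Without the third mouse labelled wild-type the adjusted p was 0.0742. Slc2a3 was at 7.28, 8.83 and 2.67 against 7.88, 8.09 and 7.21. Its mice overlapped, and its log2 fold change of -0.29 (SE 0.35, adjusted p = 0.622) was smaller than its error.

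Hexokinase traps glucose as glucose 6-phosphate, and of its 2 genes in the list 1 passed the test. Hk2, the inducible hexokinase that binds mitochondria and a textbook HIF-1 target, was higher in the mice labelled BCL6-insufficient. Its values were 7.50, 12.4 and 12.9 normalized CPM against 3.57, 6.31 and 6.98, a 1.93-fold difference (log2 fold change 0.95, SE 0.31, adjusted p = 0.0366). No mouse overlapped, but the libraries did, with between 46 and 88 reads per library under the label BCL6-insufficient and between 9 and 56 under the label wild-type. This call was less firm than that of Rpia. It was lost in 4 of the 6 fits that left out a mouse (the second or the third labelled BCL6-insufficient, adjusted p = 0.12 and 0.128, or the first or second labelled wild-type, adjusted p = 0.168 and 0.0635), with either technical repeat alone and with TPM. Hk1, the more abundant housekeeping form, was at 72.1, 64.4 and 74.8 against 84.2, 72.9 and 87.2 normalized CPM and was not called (log2 fold change -0.21, SE 0.12, adjusted p = 0.238).

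Gpi1, glucose phosphate isomerase, was 1.40-fold lower, at 272, 281 and 332 normalized CPM against 386, 392 and 463 (log2 fold change -0.49, SE 0.10, adjusted p = 0.00173). Phosphofructokinase commits the sugar to glycolysis, and its 3 subunit genes did not all pass the test. Pfkl, the liver-type subunit, showed the largest decrease among the called members. It was at 21.5, 40.7 and 33.6 against 53.3, 57.2 and 84.5 normalized CPM, 2.05-fold lower (log2 fold change -1.03, SE 0.19, adjusted p = 0.000662), and no library overlapped. The most abundant subunit gene was Pfkp, the platelet type, which stood at 142, 150 and 145 against 174, 153 and 183. Its mice did not overlap, yet it was not called (log2 fold change -0.22, SE 0.10, adjusted p = 0.135), although it was called lower once trends with GC content and length were removed (-0.37, adjusted p = 0.0222). Pfkm, the muscle type, was at 6.84, 9.36 and 5.35 against 11.9, 10.4 and 10.8 and was not called (log2 fold change -0.62, SE 0.27, adjusted p = 0.123), but it was called lower with repeat 1 alone (-1.34, adjusted p = 0.0422). Pfkm overlaps Senp1 on the other strand, which held 6060 reads against 644 for Pfkm, and Pitrm1 overlaps Pfkp with 4086 against 11149. As the strand setting of the counting is not stated, a part of these reads cannot be assigned to a gene with certainty. The same holds for 12 members in all that overlap a gene on the other strand, among them G6pdx, where Ikbkg held 29.8% as many reads, and Rpe, where Kansl1l held 21.3%.

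Pfkfb3, which makes the phosphofructokinase activator fructose 2,6-bisphosphate, was low at 4.11 to 9.46 normalized CPM against 7.02 to 10.4 and was not called (log2 fold change -0.40, SE 0.33, adjusted p = 0.454). Aldolase cleaves the 6-carbon sugar, and Aldoc, its brain-type gene, had between 2 and 22 reads per library (log2 fold change -0.14, SE 0.61, adjusted p = 0.903). Beside the nearly empty row Aldoa, the table held a row named Aldoa-1 with 51585 reads, singled out after its values were seen. The annotation has 2 genes of that symbol side by side on chromosome 7, and which row belongs to which was not resolved. Aldoa-1 was at 674 ± 84.3 (SD, n = 3) against 794 ± 75.7 normalized CPM (log2 fold change -0.24, SE 0.10, adjusted p = 0.103), and it was called lower in 5 of the 21 alternatives. These were the fit without the third mouse labelled BCL6-insufficient (adjusted p = 0.0252), the replicate block without and with GC and length trends removed (0.0193 and 0.0137), limma voom (0.0186) and DESeq2 on 12 libraries as independent samples (0.0499). It is not counted among the members. Tpi1, triosephosphate isomerase, was 1.61-fold lower, at 157, 221 and 251 against 294, 287 and 427 (log2 fold change -0.68, SE 0.15, adjusted p = 0.0021), without overlap between libraries. In DESeq2 on the 6 mice its adjusted p was 0.0583.

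Lower glycolysis, which recovers ATP from the 3-carbon sugars, had 4 of its 5 genes lower. The exception was the first of them, Gapdh, glyceraldehyde 3-phosphate dehydrogenase, which is often used as a reference gene. Gapdh stood at 1978, 2014 and 2278 normalized CPM against 2231, 2227 and 2453, so that its mice overlapped, and it was not called (log2 fold change -0.14, SE 0.08, adjusted p = 0.263). Pgk1, phosphoglycerate kinase, was at 202, 226 and 261 against 309, 318 and 368, 1.44-fold lower (log2 fold change -0.53, SE 0.11, adjusted p = 0.00115). Pgam1, phosphoglycerate mutase, was at 68.6, 86.0 and 97.4 against 135, 145 and 159, 1.74-fold lower (log2 fold change -0.80, SE 0.12, adjusted p = 9.43e-05). No library of one label reached the other for Pgam1, nor for the last 2 genes of the route.

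Eno1, the main enolase, was at 470, 662 and 730 normalized CPM against 837, 1041 and 1259, 1.69-fold lower (log2 fold change -0.75, SE 0.13, adjusted p = 0.000453). Pkm, pyruvate kinase, had the smallest p of all members. It stood at 647, 756 and 798 against 1167, 1168 and 1357, 1.68-fold lower (log2 fold change -0.75, SE 0.09, adjusted p = 1.17e-05). The gene lies on chromosome 9 from 59656368 to 59679375. The counts are per gene and do not separate its splice forms PKM1 and PKM2. Among Eno1, Pkm, Tpi1, Pgk1, Pgam1 and Gapdh the lowest mouse was the same, the first labelled BCL6-insufficient, and the highest was the third labelled wild-type.

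**Figure D3:**
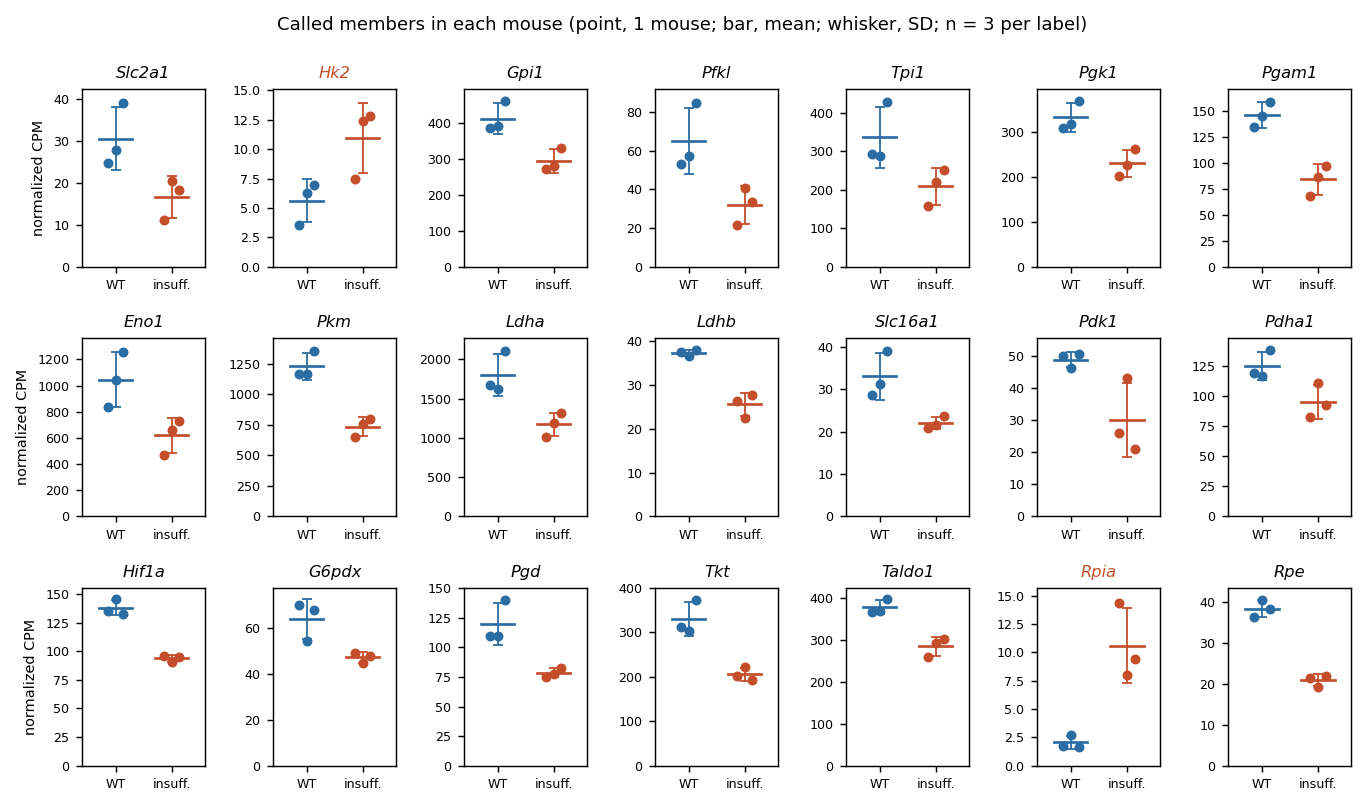
Normalized CPM of the 21 called members in each mouse (points), with the mean and SD of 3 mice per label, for the labels wild-type (blue, WT) and BCL6-insufficient (orange, insuff.). The axes start at 0. In each panel all 3 mice of one label lie on the same side of the other, below it for 19 genes and above it for Hk2 and Rpia.

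Lactate dehydrogenase and the lactate exporters had 3 of 4 members lower. Ldha, on chromosome 7 from 46841475 to 46855627, encodes the subunit that favours lactate formation. It stood at 1013, 1193 and 1310.4 normalized CPM against 1674, 1620.3 and 2107, 1.54-fold lower (log2 fold change -0.62, SE 0.10, adjusted p = 0.00024), and its libraries did not overlap. Ldhb, the heart-type subunit, was far less abundant, at 26.4, 22.6 and 27.8 against 37.5, 36.5 and 37.9, and was 1.46-fold lower (log2 fold change -0.54, SE 0.16, adjusted p = 0.0174). Slc16a1, which encodes the monocarboxylate transporter MCT1, was at 21.0, 21.5 and 23.6 against 28.7, 31.4 and 39.2, 1.5-fold lower (log2 fold change -0.59, SE 0.17, adjusted p = 0.0193). The exporter gene Slc16a3 (MCT4) had only 1 to 34 reads per library. Its values of 2.48, 1.75 and 0.617 against 2.56, 3.73 and 3.53 did not overlap, and it was not called (log2 fold change -0.99, SE 0.54, adjusted p = 0.218). The Ldhb call was lost without the second mouse labelled BCL6-insufficient (adjusted p = 0.0789) or the third labelled wild-type (0.0568), and the Slc16a1 call was lost without the first or second mouse labelled BCL6-insufficient (0.0639 and 0.0561) or the third labelled wild-type (0.136).

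Pyruvate enters the mitochondrial route through pyruvate dehydrogenase, which Pdk1 switches off by phosphorylation. Pdk1 was at 26.0, 43.0 and 20.9 normalized CPM against 49.8, 46.1 and 50.6, 1.63-fold lower (log2 fold change -0.70, SE 0.19, adjusted p = 0.0124). The second mouse labelled BCL6-insufficient came close to the others, and the call was lost without the first (adjusted p = 0.0616) or the third (0.0722). The first enzyme of the complex has an alpha and a beta subunit. Pdha1 was at 82.2, 111 and 92.3 against 119, 117 and 138, 1.32-fold lower (log2 fold change -0.40, SE 0.12, adjusted p = 0.0227), while Pdhb was at 144, 149 and 144 against 131, 136 and 156 (log2 fold change 0.05, SE 0.10, adjusted p = 0.808). Pdha1 lost its call without the first mouse (adjusted p = 0.124) or the third (0.0608) labelled BCL6-insufficient and without the third labelled wild-type (0.122). It overlaps Map3k15 on the other strand, with 2587 reads against 7751. Dlat, the acetyltransferase of the complex, was at 21.6, 20.9 and 21.3 against 26.5, 26.1 and 29.4 without overlap of mice and was not called (log2 fold change -0.36, SE 0.17, adjusted p = 0.146).

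Hif1a encodes the oxygen-regulated subunit of HIF-1, which is controlled mainly at the level of protein stability. Its transcript was at 96.2, 90.5 and 94.7 normalized CPM against 136, 146 and 133, 1.47-fold lower (log2 fold change -0.56, SE 0.10, adjusted p = 0.000612), with no overlap of libraries. The antisense gene Gm15283 overlaps Hif1a on the other strand and held 1785 reads against 8164. It was itself lower (log2 fold change -1.05, SE 0.17, adjusted p = 0.000195). Its part in the Hif1a value was not tested.

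The pentose phosphate pathway had 5 of its 7 genes lower and 1 higher. In the oxidative branch, which makes NADPH, G6pdx, the entry enzyme glucose 6-phosphate dehydrogenase, was at 49.4, 44.8 and 47.9 normalized CPM against 70.1, 54.3 and 68.1, 1.35-fold lower (log2 fold change -0.44, SE 0.13, adjusted p = 0.0232). This was among the less firm calls, lost without the second mouse labelled BCL6-insufficient (adjusted p = 0.086), without the first (0.103) or the third (0.0919) labelled wild-type, with trends of GC content and length removed (0.103), and with repeat 1 alone, where the log2 fold change was -0.10 (adjusted p = 0.797). Pgls, the lactonase of the second step, was at 43.2, 41.0 and 60.7 against 48.8, 62.4 and 51.7 and was not called (log2 fold change -0.17, SE 0.15, adjusted p = 0.481). Pgd, 6-phosphogluconate dehydrogenase, was at 75.3, 77.8 and 82.6 against 110, 109 and 140, 1.53-fold lower (log2 fold change -0.61, SE 0.12, adjusted p = 0.000845).

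The branch that interconverts sugars was carried by 2 abundant and 2 scarce genes. Tkt, transketolase, stood at 203, 222 and 193 normalized CPM against 313, 303 and 373, 1.6-fold lower (log2 fold change -0.68, SE 0.10, adjusted p = 7.58e-05). Taldo1, transaldolase, stood at 259, 292 and 302 against 366, 369 and 397, 1.33-fold lower (log2 fold change -0.41, SE 0.09, adjusted p = 0.00357). The 2 enzymes that share ribulose 5-phosphate as substrate went in opposite directions. Rpe, the epimerase that turns it into xylulose 5-phosphate, was at 21.5, 19.2 and 22.0 against 36.4, 40.4 and 38.4, 1.84-fold lower (log2 fold change -0.88, SE 0.16, adjusted p = 0.000512). Rpia, the isomerase that turns it into ribose 5-phosphate, was at 14.3, 8.04 and 9.46 against 1.74, 2.76 and 1.65, 5.19-fold higher (log2 fold change 2.38, SE 0.36, adjusted p = 8.15e-05).

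Rpia showed the largest change of all members and the only 1 upward without overlap of libraries. Raw reads in the 6 libraries labelled BCL6-insufficient were 95 and 102 in the first mouse, 53 and 39 in the second and 35 and 57 in the third. In the libraries labelled wild-type they were 3 and 16, 6 and 25, and 3 and 19, so that in each mouse of that label the first repeat held fewer reads than the second. The size of the change differed between the repeats. It was 3.91 on the log2 scale with repeat 1 alone, where the reads of the mice labelled wild-type were few, and 1.68 with repeat 2 alone, it was 1.12 with limma on log2(TPM + 1), the smallest over the alternatives, and it ranged from 2.09 to 2.63 when 1 mouse was left out. Rpia kept its call in each of the 20 alternatives that tested it.

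Ratios of 2 members inside the same mouse do not depend on the scaling of libraries. In 4 of 8 such ratios the mice of the labels did not overlap. With 3 mice against 3, the exact two-sided permutation test cannot go below p = 0.1, which these 4 ratios reached (adjusted p = 0.2 over the 8). Rpia over Rpe was 0.668, 0.418 and 0.430 in the mice labelled BCL6-insufficient and 0.0479, 0.0681 and 0.0430 in those labelled wild-type, a log2 difference of 3.25. These 2 members had already been called in opposite directions without overlap of mice. Their ratio was therefore bound to separate, and its p adds nothing to those calls. Hk2 over Hk1 was 0.104, 0.193 and 0.172 against 0.0424, 0.0866 and 0.08, a log2 difference of 1.18. Pfkl over Pfkp fell by 0.83 on the log2 scale, from 0.306, 0.374 and 0.462 to 0.151, 0.27 and 0.232. Pdhb over Pdha1 was 1.75, 1.35 and 1.56 against 1.1, 1.17 and 1.13, a log2 difference of 0.45. Over single libraries, Rpia over Rpe again did not overlap, at 0.358 to 0.888 against 0.0146 to 0.0912. Hk2 over Hk1, Pfkl over Pfkp and Pdhb over Pdha1 did overlap between libraries.

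In the remaining ratios the mice of the labels overlapped. Ldhb over Ldha was 0.0221 ± 0.00367 against 0.0210 ± 0.00258 (SD, n = 3 each), a log2 difference of 0.07, smaller than the SD among mice of 0.24 and 0.18 on that scale. Slc2a3 over Slc2a1, Pfkm over Pfkp and Slc16a3 over Slc16a1 differed by 0.43, -0.44 and -0.65 on the log2 scale, with an SD among the mice labelled BCL6-insufficient of 1.11, 0.38 and 1.13.

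**Figure D4:**
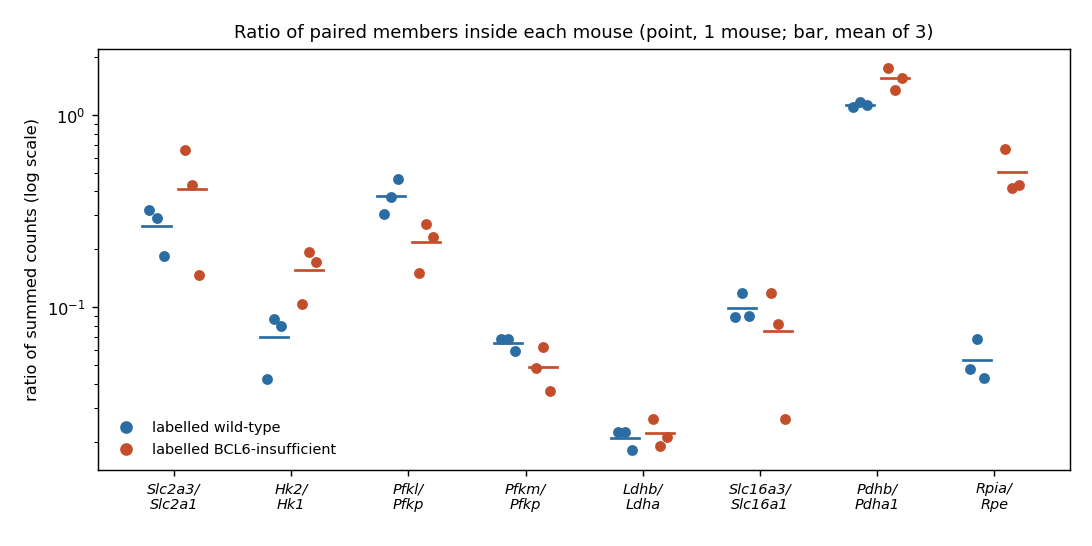
Ratio of the summed reads of 2 members inside each mouse, on a log axis, for the labels wild-type (blue) and BCL6-insufficient (orange), with the mean of 3 mice as a bar. The mice separate for Hk2/Hk1, Pfkl/Pfkp, Pdhb/Pdha1 and Rpia/Rpe and overlap for the other 4 ratios.

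Summed over the 33 genes, the mice labelled BCL6-insufficient held 6172, 6915 and 7499 normalized CPM and those labelled wild-type 8881, 9026 and 10679. Without Gapdh, which made up the largest share, the sums were 4193, 4901 and 5221 against 6650, 6799 and 8226. The groups were apart in both sums. The third mouse labelled wild-type was the highest of its label for 22 of the 32 tested members, against 34.0% of all genes, and the first mouse labelled BCL6-insufficient was the lowest of its label for 17, against 33.4%.

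**Figure D5:**
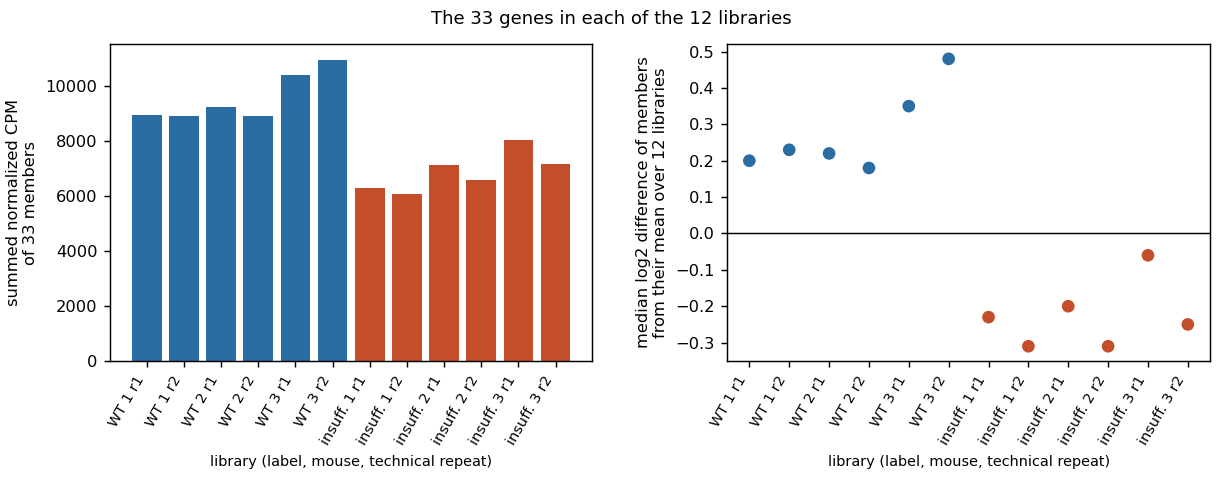
Left, summed normalized CPM of the 33 genes in each of the 12 libraries. Right, the median over the 32 tested members of the log2 difference from each member's own mean over the 12 libraries, after adding 0.5 to each value. The 6 libraries labelled wild-type (blue) lie between 0.18 and 0.48 and the 6 labelled BCL6-insufficient (orange) between -0.31 and -0.06.

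Measures of other kinds were set beside the labels. Ribosomal protein genes took 10% to 12.4% of the counts in the libraries labelled BCL6-insufficient and 8.0% to 9.64% in those labelled wild-type, without overlap. Mitochondrially encoded genes took 2.11% to 2.80% against 1.65% to 2.54% and overlapped. When both families were left out of the scaling, the members called were again 19 lower and 2 higher. Of 17 proliferation genes 2 were higher, Mki67 and Top2a (log2 fold changes of 0.63 and 0.54), and 4 were lower, Mcm5, Mcm6, Rrm1 and Bub1 (-0.48, -0.41, -0.36 and -0.41), beside 9.17% higher and 8.82% lower over all genes, and the sum of the list overlapped between labels, at 7217 to 7508 against 6421 to 7579 normalized CPM. Their part in the result was not tested. Myeloid markers summed to 14.3 to 67.4 normalized CPM against 6.53 to 18.6 and overlapped, in single libraries as for the sums below, with Lyz2 at 16.5 in the first mouse labelled BCL6-insufficient and at 0.0916 to 3.67 in the other 5. The top of the first range was set by 1 library, repeat 2 of the second mouse labelled BCL6-insufficient, where S100a8 held 160 reads and S100a9 51, while both were at 0 in the other libraries of that label. By mouse, 2 of the 4 tested myeloid markers, Lyz2 and Csf1r, were higher in all 3 mice labelled BCL6-insufficient than in all 3 labelled wild-type, against 17.4% of all genes. No tested myeloid marker was lower in that way. B cell markers without Ighm summed to 19.7 to 187 against 13.3 to 115 and overlapped. With Ighm they summed to 469 to 782 against 591 to 984, and Ighm itself was not called (log2 fold change -0.30, adjusted p = 0.0511). CD8 and NK cell markers summed to 24.7 to 37.0 against 26.5 to 51.0 and overlapped. The part of these cells in the result was not tested.

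Further genes of the same pathways were examined as a separate list. Of 58 further genes of glycolysis, pyruvate entry and the pentose phosphate pathway, 34 were tested, 9 were lower and 1 was higher, with a median log2 fold change of -0.20, beside 8.82% lower and 9.17% higher over all genes. The number of lower genes was 5 without the third mouse labelled wild-type, when 5.25% of all genes were lower, and 4 with repeat 2 alone, when 6.11% were. The lower genes included Prps1 (-0.78, SE 0.13, adjusted p = 0.000275), which makes the nucleotide precursor PRPP from ribose 5-phosphate, Pdk3 (-0.87, SE 0.16, adjusted p = 0.000451), another pyruvate dehydrogenase kinase, and Pgm2 (-1.03, SE 0.22, adjusted p = 0.0019), a phosphopentomutase. Dld, the shared last enzyme of the mitochondrial dehydrogenase complexes, and Dera, which splits deoxyribose phosphate, were also lower (-0.66 and -0.46). Prps2, Pgm1, Slc2a8 and Eno1b completed the 9. Of the 6 fits without 1 mouse, Slc2a8 passed in 0, Pgm1 in 2 (those without the third mouse labelled BCL6-insufficient or the second labelled wild-type), Eno1b in 3 (lost without the first or the second labelled BCL6-insufficient or the third labelled wild-type) and Prps2 in 5 (lost without the third labelled wild-type). The counts of Eno1b, a near copy of Eno1, may share reads with Eno1. Mpc2, a subunit of the mitochondrial pyruvate carrier, was the gene that was higher (0.44, SE 0.14, adjusted p = 0.0284), a call that was lost in 5 of the 6 fits that left out a mouse, all but the one without the second mouse labelled BCL6-insufficient. With repeat 1 alone Mpc2 stood at 0.089 (adjusted p = 0.84).

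Among 18 tested genes of the HIF pathway, 2 were lower and 2 higher, shares close to those of all genes (8.82% and 9.17%), with a median of -0.35. Ddit4, an inhibitor of mTORC1, was at 15.1 ± 2.89 against 33.2 ± 2.85 normalized CPM (SD, n = 3; log2 fold change -1.13, SE 0.19, adjusted p = 0.000201), and Egln3, a prolyl hydroxylase that marks HIF for degradation, was lower as well (-0.83, SE 0.20, adjusted p = 0.0063). Egln1, the main such hydroxylase, was higher (0.72, SE 0.20, adjusted p = 0.0161), as was the mitochondrial gene Higd1a (0.34, SE 0.10, adjusted p = 0.0207). Each of the last 3 calls depended on single mice. Egln3 was lost without the first mouse labelled wild-type, Egln1 without the first or the second labelled BCL6-insufficient or the third labelled wild-type, and Higd1a was kept in 2 of 6 fits, those without the first mouse of either label. The tricarboxylic acid cycle, which oxidises the acetyl-CoA made from pyruvate, had 8 of 17 genes lower and none higher, with a median of -0.28, beside the same 8.82% and 9.17% of all genes. Sdhd was 1.94-fold lower (-0.96, SE 0.11, adjusted p = 2.24e-06), Sdha 1.56-fold (-0.64, SE 0.10, adjusted p = 0.000169) and the citrate synthase gene Cs 1.42-fold (-0.51, SE 0.09, adjusted p = 0.000624). Idh3a and Idh2 followed at -0.55 and -0.58. Whether these lists differ from the 33 members in their change was not tested.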

How the data were processed

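RNA was measured by RNA-seq with an adapted SMART-Seq2 protocol in 12 libraries, 2 technical repeats of about 200 sorted cells from each of 6 recipient mice. The authors aligned the reads with HISAT2 (2.2.1 in the submitters' processing notes) to mm10, counted them per gene with HTSeq, and deposited raw counts for 24561 gene rows and TPM values for 24530. The annotation release and strand setting are not given in the sources used here. The deposited TPM imply gene lengths that follow the gene span, introns included (Spearman correlation across 8108 genes of 0.951), more than the summed exon length (0.599).

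Counts of the repeats were summed per mouse, and the 6 mice were compared over all genes with edgeR 4.0.16 in R 4.3.3 (filterByExpr, TMM, quasi-likelihood test, Benjamini-Hochberg adjustment, threshold 0.05). The SE is the log2 fold change divided by the square root of F. All columns were used. Coordinates and lengths came from GENCODE vM21 on GRCm38, in which 23796 symbols matched by name and 211 by another symbol.

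The members and lists were chosen with earlier results of these data known. Values per mouse are given for members that passed the test, the 5 of largest level per kb and the pairs of related genes, and the other members by role. Of each further list the called genes, at most the 5 of smallest p, and in one list all, are named. The further lists were glycolysis, pyruvate entry, pentose phosphate, HIF pathway and tricarboxylic acid cycle genes, and markers of Tfh, B, myeloid, CD8 and NK cells and of proliferation. Of 10 Tfh and T cell markers, 2 were higher and 3 lower. Alternatives were DESeq2 1.42.0, limma 3.58.1 on voom values or TPM, each repeat alone, other scalings and filters, a block for the replicate number, offsets for GC content and length (mgcv 1.9.3), and each mouse left out. Reads carried no molecular identifiers, so counting error alone would understate the error.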

Additional observations from a re-analysis of the deposited data

Results flagged for a closer look

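Over 32 members and Bcl6, each with 6 libraries of each label, 66 groups of libraries were examined for a library far from the rest, judged by its gap to the nearest library over the range of the group, and 4 had one. For independent libraries chance gives about 1 in 20 such groups, here 3.3. These libraries were not independent, as each mouse gave 2 repeats and the groups of a label share the same mice. Pgk1 was at 414 normalized CPM in repeat 2 of the third mouse labelled wild-type, and at 293 to 326 in the other 5 libraries of the label. Pdha1 was at 159 in repeat 1 of the same mouse, against 117 to 124. Pdhb was at 172 in repeat 2 of the same mouse, against 130.4 to 140.5. Bcl6 was at 100 in repeat 1 of the second mouse labelled wild-type, against 46.6 to 63.0, still below every library labelled BCL6-insufficient.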

How the results depend on the processing

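Of 21 alternatives, the count of all genes called (2288) went to 1059 with repeat 1 alone, 1446 with repeat 2 alone, and 1305 and 1260 with limma on log2(TPM + 1) and log2(TPM + 0.1), and lay between 1424 and 1972 when a mouse was left out. Members called lower (19) were 12 in both TPM fits and 14 to 19 with a mouse left out. Members called higher (2) were 1 with repeat 1 alone, 1 with repeat 2 alone, 1 in each TPM fit, 0 with at least 10 counts in every library, where Hk2 and Rpia were not tested, and 1 to 2 with a mouse left out. Other pathway genes called higher (1) were 0 with repeat 1 alone, in both TPM fits and with GC and length trends removed, and 0 to 1 with a mouse left out. Other pathway genes called lower (9) were 4 with repeat 2 alone, 5 with log2(TPM + 1) and 5 to 8 with a mouse left out. A single repeat holds fewer reads, and the cause of the other changes was not tested.

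All genes called split into 1166 higher and 1122 lower in the main fit, 1331 and 957 with upper-quartile scaling, and 390 and 915 or 374 and 886 with TPM, where the median of all genes was -0.07 or -0.11 and that of the members -0.55 or -0.61.

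Uncalled members changed sign in 10 cases. Slc2a3 was at 0.099 with repeat 2 alone and between -0.61 and 0.056 with a mouse left out (above 0 without the third labelled BCL6-insufficient), Hk1 at 0.005 with repeat 1 alone, and Aldoc at 0.091 in voom and between -0.38 and 0.047 with a mouse left out (above 0 without the second labelled BCL6-insufficient or the first labelled wild-type). Pdhb was at -0.011 with repeat 2 alone, at -0.043 in both TPM fits and between -0.015 and 0.118 with a mouse left out (below 0 without the first labelled wild-type).

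Whether mice of the 2 labels with the same replicate number shared a day or a batch is not stated. Correlations of their deviations were 0.09, -0.03 and 0.02, and -0.08 to 0.06 for mice of different numbers. Such values cannot show that nothing was shared. With the replicate block 2579 genes were called, and the members called were again 19 lower and 2 higher. Other pathway genes were 10 lower with the block.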
